A study of Homo sapiens with 36 samples.

Results

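The regions described here are the 1471 H3K27ac regions that were specific to NEG cells among 57075 H3K27ac regions listed for NEG and POS cells of the breast cancer line SUM-229PE, which is 2.58% of them. The regions were chosen by their measured H3K27ac levels: a region was taken where its mean level in untreated NEG libraries was at least 20 CPM and at least 8 times the mean level in untreated POS libraries plus 0.5 CPM. CPM is the count of reads in a region divided by the library's total over all listed regions, times 1e6. The chosen regions were then followed into the libraries of treated cells, to see whether they were kept in NEG cells and whether they appeared in POS cells.

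SUM-229PE is a triple-negative breast cancer line established from a pleural effusion, used at passages 15 to 18. Per the labels, EpCAM-CD49f- cells (NEG) and EpCAM+CD49f+ cells (POS) were separated by flow cytometry, chromatin was precipitated with antibodies to H3K27ac or JUNB, and all libraries come from this line with no genetic change named. The H3K27ac libraries used here are, for NEG cells, of trametinib at 30 nM for 24 hours (2) and DMSO (2). A chronic trametinib arm of NEG cells has day 14 at 10 nM (2) and day 0, which is named as its DMSO control (2). Those of POS cells are of trametinib at 30 nM for 24 hours (3) and DMSO (3). The chronic trametinib arm of POS cells has day 14 at 10 nM (2) and day 0, likewise named as DMSO (2). Further H3K27ac libraries are of POSR2 (2) and POSR1 (2), a subpopulation the labels name POSR without further explanation, also as to whether drug was present. JUNB was profiled in NEG (2) and POS (2) cells given DMSO.

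Replicates are not described as separate cultures in the labels, and the p-values therefore reflect only the scatter of these libraries, which may be technical. No untreated group at day 14 was analysed here, so the drug and 14 days in culture cannot be told apart. The sort could not be checked against its marker genes, because no annotation of the files' genome build, hg19, was used here, and regions are given by position without gene names. Positions are as the files give them, and the files do not say whether starts count from 0 or 1.

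Acetylation of lysine 27 on histone H3 marks active promoters and enhancers, and enhancers that carry it differ more between cell states than promoters do. JUNB is a subunit of AP-1, a transcription factor dimer that binds enhancers in many cell types and whose members respond to growth factor signals. Trametinib inhibits MEK kinases, which activate ERK, and ERK signalling in turn raises the production and activity of several AP-1 subunits.

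Library totals over listed regions were 1861227 to 9212006 counts for H3K27ac and 4884516 to 8947351 counts for JUNB. Among the untreated libraries that chose the regions, POS replicate 2 had the highest POS level over them. The median level over the 1471 regions was 37.9 and 38.5 CPM in the 2 NEG libraries, against 1.46, 3.23 and 2.29 CPM in POS replicates 1, 2 and 3. POS replicate 2 was also the highest of the POS libraries over all listed regions, with medians of 7.64, 9.90 and 8.69 CPM in replicates 1, 2 and 3. Leaving out POS replicate 1, 2 or 3 gave 1242, 1747 or 1451 regions by the same rule, and leaving out NEG replicate 1 or 2 gave 1454 or 1472. How far that POS library shaped the choice of regions was not tested beyond these counts. Whether a lower level means fewer cells carrying the mark or less of it per cell cannot be told apart in bulk chromatin.

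The values that chose the regions are given as a description. Over the 1471 regions, mean levels ranged from 20.1 to 408 CPM in NEG cells, with a median of 38.1, against 0.126 to 25.4 CPM in POS cells, with a median of 2.35. The ratio of the NEG mean to the POS mean plus 0.5 had a median of 12.5 and a maximum of 101. It was at least 16 in 445 regions and at least 32 in 87. The regions made up 10.5% of the 13968 regions at 20 CPM or more in NEG cells. Of the rest, 12495 met the ratio neither for NEG over POS nor for POS over NEG. These are called below the other regions at 20 CPM or more in NEG cells. The same rule with the cells exchanged chose 2115 regions for POS.

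The highest ratio was at chr6:68339390-68340391, with 132 and 138 CPM in NEG cells, against 0.675, 1.08 and 0.762 CPM in POS cells. Next came chr18:14971632-14972633, with 92.1 and 101 CPM in NEG cells and 0.450, 0.646 and 0.914 CPM in POS cells, a ratio of 82.4. At chr10:31550427-31551428 the 2 NEG libraries held 149 and 136 CPM and the 3 POS libraries 1.01, 0.861 and 1.98 CPM. The ratio was between 67.8 and 79.8 at this region and at chr4:61548565-61549566, chr19:54875851-54876852 and chr10:44383371-44384372. All NEG libraries lay far above all POS libraries at these 6 regions, and the POS level at each was that of a few reads.

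The highest NEG level was instead at a region with some mark in POS cells. At chr9:18542925-18543926 the level was 401 and 415 CPM in NEG cells, against 10.3, 20.7 and 14.8 CPM in POS cells. At chr9:18437926-18438927 it was 265 and 288 CPM in NEG cells, against 18.8, 34.2 and 23.2 CPM in POS cells. This is 1 of 3 regions that met the rule with a POS mean of 20 CPM or more, along with chr2:216565091-216566092 and chr3:144733437-144734438. POS replicate 2 was the highest of the POS libraries at both chr9 regions. In 22 regions the POS mean was under 0.5 CPM.

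Near the limits the values were continuous. The NEG mean was 20.1 CPM at each of chr9:119213086-119214087, chr6:122203333-122204334 and chr2:68007344-68008345, just inside, and 19.98, 19.93 and 19.91 CPM at chr19:47679386-47680387, chr10:85367872-85368873 and chr19:33600474-33601475, just outside. The ratio was 8.01 at chr2:20810602-20811603, chr15:68817227-68818228 and chr6:134312353-134313354, just inside, and fell just short of 8 at chr12:57542504-57543505, chr3:12228797-12229798 and chr20:36651220-36652221, with 7.996 at the last of these.

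**Figure D1:**
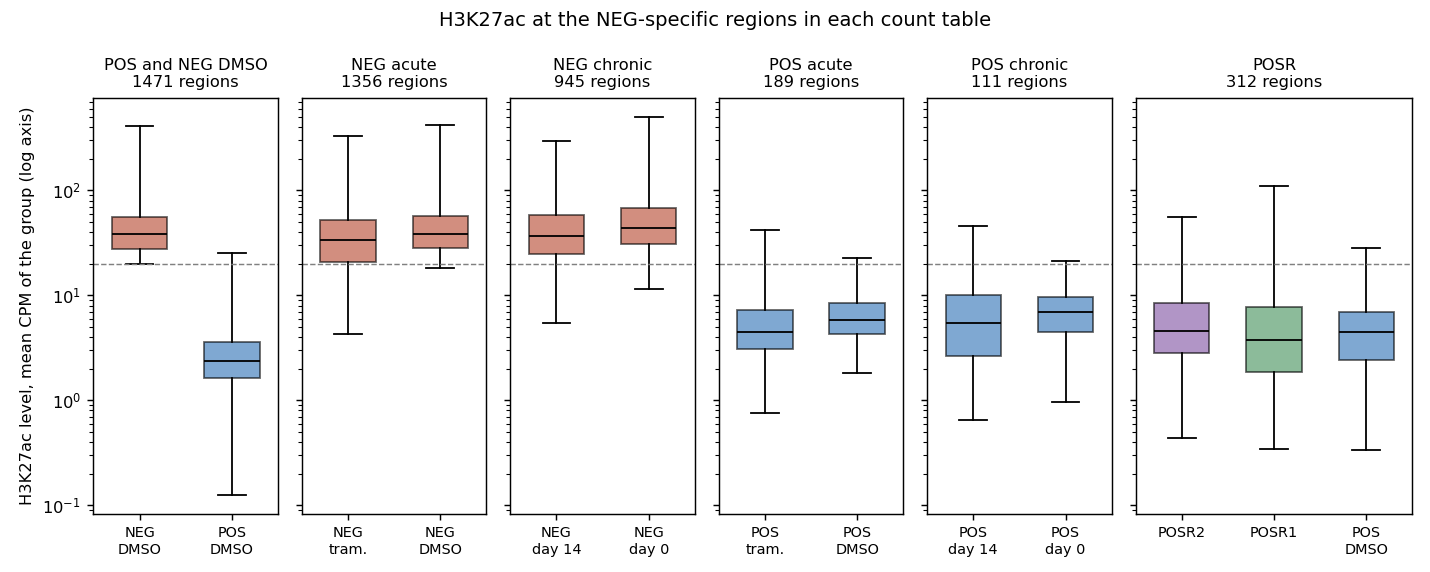
H3K27ac at the NEG-specific regions listed in each count table, as the mean CPM of each group on a log axis, with boxes for the quartiles and median over regions and whiskers to the lowest and highest region. The dashed line is 20 CPM. Groups of NEG cells have medians of 33.4 to 43.9 CPM, and groups of POS cells and POSR medians of 2.35 to 6.87 CPM.

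JUNB, which the rule did not use, was also higher in NEG cells at nearly all of these regions. A JUNB site (201 bases wide) lay in 1364 of the 1471 regions (92.7%), against 77.7% of all H3K27ac regions and 93.4% of the other regions at 20 CPM or more in NEG cells. Of the 1360 whose site was tested, with the site of highest level standing for the region, 1349 were higher in NEG cells and 1 was lower (edgeR's quasi-likelihood test, Benjamini-Hochberg over all 141580 sites tested, threshold 0.05). Over all sites tested, 29.4% were higher and 28.5% lower in NEG cells. The median log2 fold change of NEG over POS at these sites was 3.65, and 1339 passed 2-fold. The median JUNB level was 14.7 CPM in NEG cells and 1.13 CPM in POS cells. In the other regions at 20 CPM or more in NEG cells, 5088 of 11660 sites were higher and 1202 lower, and in the regions chosen for POS 0 of 1999 were higher and 1962 lower. The JUNB libraries and the H3K27ac libraries that chose the regions are all of cells given DMSO.

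Single sites show the range. At chr3:73835557-73836558 the JUNB level was 46.5 and 42.8 CPM in NEG cells, against 0 and 0.205 CPM in POS cells, where 1 read was counted in all. The ratio of NEG to POS counts per library total there was 622, with an exact 95% interval of 111 to 24590 that covers counting error only. At chrX:111879594-111880595 the 2 NEG libraries held 25.2 and 21.9 CPM and both POS libraries held no read, so JUNB was at least 109.9-fold higher in NEG cells when the POS group is set at a floor of 3 counts. There were 4 such sites with no POS read and 75 with 1 to 3 POS reads. Setting the 4 to their bounds, of 17.3-fold or more, left the median log2 fold change at 3.65. The median could not move, because these bounds lie above it, and the 75 sites were left unchanged.

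The 1 exception was chr19:940278-941279, where JUNB was 26.6 and 26.8 CPM in NEG cells, against 37.3 and 40.7 CPM in POS cells, a log2 fold change of -0.50 ± 0.23 (SE, adjusted p = 0.048 by edgeR), although H3K27ac at it averaged 24.1 CPM in NEG cells and 2.17 CPM in POS cells. The call was lost in DESeq2, with the replicate number as a block, and without NEG replicate 1, NEG replicate 2 or POS replicate 1. Of the 10 regions whose site did not pass in either direction, chr9:113673837-113674838 held 27.3 and 37.4 CPM of JUNB in NEG cells and 27.2 and 22.7 CPM in POS cells, with an adjusted p of 0.13 by edgeR. Here H3K27ac averaged 90.5 CPM in NEG cells and 9.16 CPM in POS cells.

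In all, 1177 regions held 1 JUNB site and 187 held at least 2. Of the 1553 sites in them, 1529 were higher and 1 lower in NEG cells. The middle of the strongest site lay a median of 263 bases from the middle of its region, and within 250 bases in 43.0% of cases, against 54.0% over all H3K27ac regions with a site. Among the 107 regions with no assigned JUNB site, the highest NEG levels were at chr6:23174364-23175365 (289 and 285 CPM in NEG cells, 7.87, 9.04 and 7.62 CPM in POS cells), chr8:108127848-108128849 and chr8:96572328-96573329. Across the 1360 regions the NEG JUNB level and the NEG H3K27ac level had a Pearson r of 0.446 and a Spearman rho of 0.416, which describes regions and not independent replicates.

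**Figure D2:**
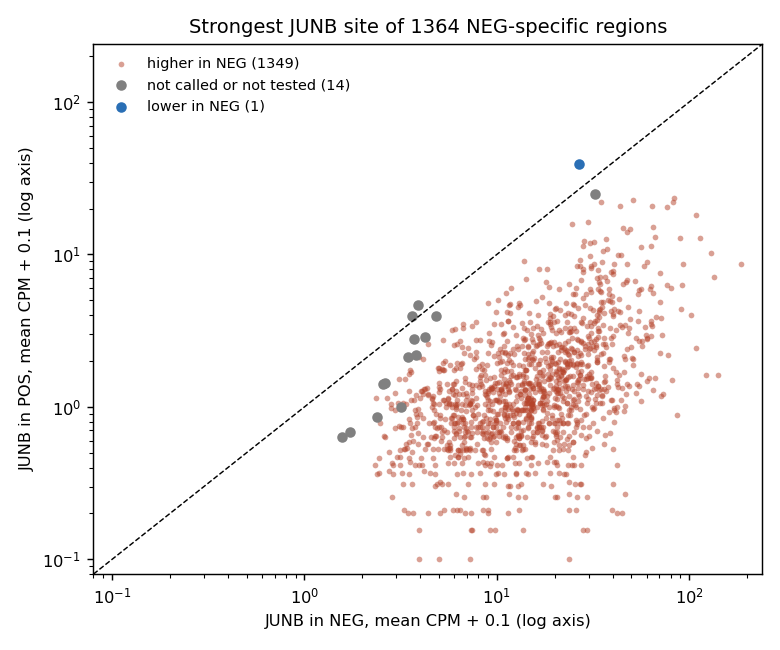
Mean JUNB level at the strongest site of the 1364 NEG-specific regions that hold one, in NEG cells (horizontal) against POS cells (vertical), in CPM plus 0.1 on log axes, coloured by the call. The dashed line marks equal levels. The 1349 sites called higher in NEG cells lie below the line, and the 1 called lower lies above it.

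The regions were spread over the genome with some local groups. Chromosome 8 held 136, which is 12.4% of its regions at 20 CPM or more in NEG cells, beside 10.5% over the genome. Chromosome 3 held 132 (11.9%) and chromosome 2 held 121 (9.1%). The share ran from 5.18% on chromosome 22, with 10 regions, to 18.4% on chromosome 21, with 25. Joining regions within 50 kb gave 1153 groups, of which 919 were single regions, 234 had at least 2 members and 54 at least 3. These groups of at least 2 held 552 regions (37.5%), against 36.1% for the regions chosen for POS.

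The largest group was 8 regions within chr1:201507297-201666528, among 11 H3K27ac regions in that 159 kb span, with means of 32.4 to 113 CPM in NEG cells and 1.10 to 12.2 CPM in POS cells. Its 6 JUNB sites were all higher in NEG cells. A second group of 7, among 12 regions from chr12:108699505 to 108841052, had means of 26.6 to 164 CPM in NEG cells and 1.13 to 9.70 CPM in POS cells. Next were 2 groups of 6. One, among 7 regions from chr8:75579496 to 75697044, had means of 29.9 to 59.3 CPM in NEG cells, and JUNB was higher in NEG cells at its 6 sites. The other, among 11 regions from chr15:25982336 to 26129962, had means of 31.0 to 99.8 CPM in NEG cells and is returned to under POSR.

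Not every region was listed in the authors' other tables, which each rest on their own peaks, and a region was followed only where a listed region overlapped it by 50% in both directions. For NEG cells, 1356 (92.2%) were listed in the 24 hour table and 945 (64.2%) in the chronic table, and 1425 in at least 1 of them. For POS cells, 189 (12.8%) were listed in the 24 hour table, 111 (7.55%) in the chronic table and 312 (21.2%) in the POSR table. The matching shares of the other regions at 20 CPM or more in NEG cells were 83.9%, 77.6%, 76.0%, 67.0% and 78.4%. A region with no listing has no count there, and 1122 (76.3%) were listed in none of the POS and POSR tables. Those listed were among the higher ones in POS cells: the 189 in the 24 hour table had a median of 5.70 CPM in untreated POS cells, against 2.17 CPM for the rest. Counts below therefore speak of listed regions only. A region low in untreated POS cells may be listed in these tables only because a treated or POSR group was high. Changes among the listed regions are favoured by this.

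The NEG and POS difference was present in libraries that the rule did not use. For this, counts of regions matched between the NEG and POS tables were fitted together. CPM here is per library total over matched regions, scaled by edgeR's TMM factors. At day 14 these factors were 1.131 and 1.122 in NEG libraries and 0.848 and 0.8465 in POS libraries. At day 0, 96 regions were listed in both chronic tables, and 96 were higher in NEG cells and 0 lower (edgeR, threshold 0.05), against 36.5% higher and 36.3% lower over all 15794 matched regions. Their log2 fold changes ran from 1.50 to 4.73 with a median of 3.33. At day 14, 93 of the 96 were higher and 1 lower, against 40% and 39% over all, with a median of 2.60. After 24 hours of trametinib, 139 of 139 listed in both acute tables were higher in NEG cells, against 38.9% higher and 36.4% lower over all 18181 regions, with log2 fold changes of 1.59 to 5.68.

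At day 0 the largest fold was at chr1:162825492-162826493, with 470.4 and 451 CPM in NEG cells, against 16.3 and 18.9 CPM in POS cells, a log2 fold change of 4.73 ± 0.14 (SE, adjusted p = 1.7e-236 by edgeR). After 24 hours of trametinib it was at chr1:162843395-162844396, with 361 and 354 CPM in treated NEG cells and 7.05, 9.20 and 5.32 CPM in treated POS cells (5.68 ± 0.14). At day 14 it was at chr16:57033903-57034904, with 238 and 219 CPM in NEG cells and 5.25 and 6.08 CPM in POS cells (5.32 ± 0.20). NEG levels were many times the POS levels at these 3 regions, which were named for their large folds.

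The 1 region lower in NEG cells at day 14 was chr21:28419421-28420422, with 44.6 and 48.4 CPM in NEG cells and 63.5 and 59.3 CPM in POS cells, a log2 fold change of -0.40 ± 0.17 (SE, adjusted p = 0.021 by edgeR). From day 0 to day 14 it fell by 1.02 ± 0.14 on the log2 scale in NEG cells and was higher by 1.19 ± 0.19 in POS cells, each in its own table and past the threshold in edgeR. Scaling by total counts moved its value to 0.01, past 0, with no call, and the call was also lost in DESeq2 and without replicate 1 of NEG or of POS cells at day 14.

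In NEG cells 786 of the 945 regions listed in the chronic table stood at 20 CPM or more at both day 14 and day 0, and 124 that did so at day 0 were under 20 CPM at day 14. The median over 945 listed regions was 37.2 CPM at day 14 and 43.9 CPM at day 0. At 20 CPM or more stood 803 at day 14, against 910 at day 0. Medians over all regions of the chronic listing were 25.6 CPM at day 14 and 23.1 CPM at day 0. In the NEG libraries that chose the regions the median over all regions was 9.29 CPM. So 20 CPM is a lower bar in the chronic listing, which its typical region of any kind passed at day 14 and at day 0. Counts at this level cannot be read as particular to the NEG-specific regions, and no share over all regions of that listing is given here. The median NEG-specific region held 84.4% of its day 0 level, with a range of 16.3% to 501%, and 143 stood below 50% of it. By edgeR, day 14 levels exceeded those at day 0 in 151 regions and lay below them in 427, beside 24.8% higher and 23.8% lower over all 28179 regions tested. Past 2-fold there were 20 higher and 159 lower. DESeq2 called 82 higher, and matching by an 80% overlap left 81 higher and 241 lower. Of the other regions at 20 CPM or more in NEG cells, 18.2% were higher and 36.8% lower, with a median log2 fold change of -0.16, against -0.30 for the NEG-specific ones and -0.00 over all regions. The share called lower, 45.2%, stood above both backgrounds, and no test of the difference between the lists was made.

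The largest fall was at chr8:120677335-120678336, with 17.7 and 23.4 CPM at day 14, against 125 and 127 CPM at day 0, a log2 fold change of -2.65 ± 0.15 (SE, adjusted p = 7.2e-26 by edgeR). At chr6:80095054-80096055 the level was 9.67 and 8.77 CPM at day 14 and 51.2 and 56.1 CPM at day 0 (-2.58 ± 0.21). At chr15:38437473-38438474 it was 15.0 and 11.2 CPM at day 14 and 73.8 and 64.5 CPM at day 0 (-2.47 ± 0.18). The fourth largest fall was at chr12:115093880-115094881 (-2.45 ± 0.28). Day 14 and day 0 values were far apart at each of them.

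Others gained. The largest rise was at chr8:11025709-11026710, with 107.5 and 102 CPM at day 14, against 24.3 and 17.6 CPM at day 0, a log2 fold change of 2.24 ± 0.14 (SE, adjusted p = 1e-22 by edgeR). At chr2:41837486-41838487 the level was 93.5 and 98.9 CPM at day 14, against 24.3 and 22.9 CPM at day 0 (1.97 ± 0.14). The next were chr1:246024103-246025104 (1.68 ± 0.15) and chr5:33120813-33121814 (1.66 ± 0.15). In untreated NEG cells of the table that chose the regions, these 4 averaged 23.2 to 41.4 CPM.

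After 24 hours of trametinib falls again outnumbered rises in NEG cells, but the DMSO libraries had chosen the regions for high values, so it is a description. The median over 1356 listed regions was 33.4 CPM in treated and 38.2 CPM in DMSO cells, and 1033 stood at 20 CPM or more in treated cells. Over all regions of that listing the medians were 10.3 CPM in treated and 9.95 CPM in DMSO cells. No share of them at 20 CPM or more is given here. By edgeR 253 of the 1356 were higher and 707 lower, beside 17.2% higher and 19.3% lower over all 54409 regions. Of the other regions at 20 CPM or more in NEG cells 16.7% were higher and 42.9% lower, against 18.7% and 52.1% of the NEG-specific ones. The level was 8.58 and 7.64 CPM in treated cells at chr9:6552084-6553085, against 60.0 and 70.3 CPM in DMSO cells (log2 fold change -3.06). At chr8:96572328-96573329, which has no JUNB site, it was 28.0 and 28.4 CPM in treated cells and 159 and 169 CPM in DMSO cells (-2.60). At chr1:103749858-103750859 it was 115 and 105 CPM in treated cells and 31.7 and 28.4 CPM in DMSO cells (1.81). Regions with a JUNB site were called lower at 24 hours in 52.7% of 1261 cases, and those without in 44.2% of 95, again with no test of the difference. DESeq2 called 162 regions higher.

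The 24 hour and day 14 comparisons in NEG cells share no library. Over the 876 regions listed in both, their log2 fold changes had a Pearson r of 0.570, a description across regions. By edgeR 294 were lower in both, 58 higher in both and 124 called in neither, while 29 were higher at 24 hours and lower at day 14 and 25 the other way round. Of the 406 called in both, 352 (86.7%) had the same direction. Over all 17007 regions listed in both NEG tables the r was 0.608 and 90.2% of those called in both had the same direction, and among the other 8513 at 20 CPM or more in NEG cells it was 89.7%. The 294 lower in both are 33.6% of the NEG-specific regions, against 25% of those other regions and 17.4% of all. The 58 higher in both are 6.62%, against 8.05% and 10.3%. The DMSO libraries of the 24 hour comparison chose the regions for high values, which favours falls there, so these shares are a description. Regions with a JUNB site were called lower at day 14 in 45.3% of 886 cases and those without in 44.1% of 59, and the difference was not tested.

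**Figure D3:**
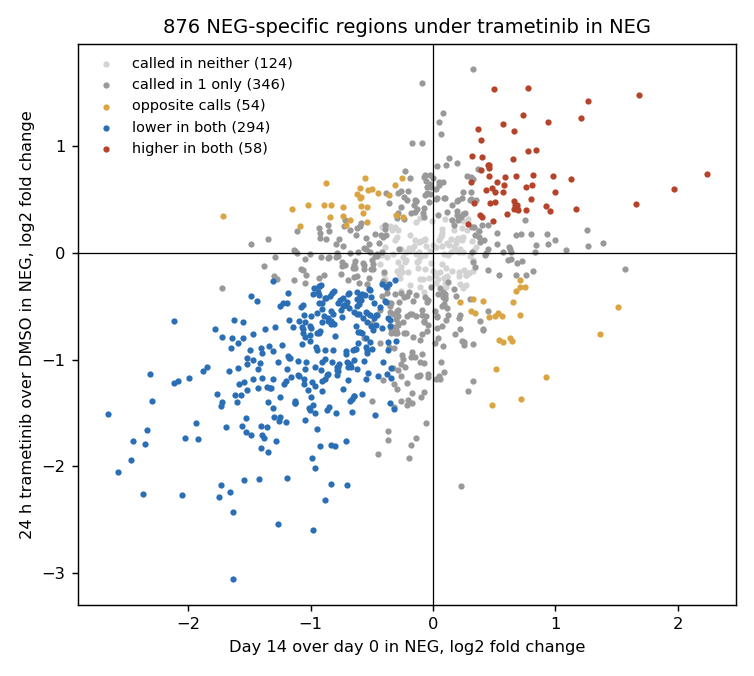
Log2 fold changes of the 876 NEG-specific regions listed in both NEG tables, for day 14 over day 0 (horizontal) and 24 hours of trametinib over DMSO (vertical), coloured by the edgeR calls. The 294 regions lower in both fill the lower left and the 58 higher in both the upper right, while 54 had opposite calls.

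In POS cells few of the regions reached the level that defined them in NEG cells. At day 14, 8 of the 111 listed regions stood at 20 CPM or more, against 2 at day 0. By edgeR, day 14 levels exceeded those at day 0 in 37 regions (33.3%) and lay below them in 53 (47.7%), beside 39.5% higher and 38.2% lower over all 44304 regions. In the other regions at 20 CPM or more in NEG cells 21.5% were higher and 57.6% lower, so the share of falls lay between both backgrounds. The median log2 fold change was -0.61 and the median level 5.43 CPM at day 14 and 6.87 CPM at day 0.

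A small number rose sharply. At chr20:55615460-55616461 the level was 45.7 and 45.6 CPM at day 14, against 1.23 and 2.19 CPM at day 0, a log2 fold change of 4.86 ± 0.25 (SE, adjusted p = 2.7e-42 by edgeR). In the table that chose the regions, untreated NEG cells averaged 56.97 CPM at it. In NEG cells the same region fell at day 14 (-1.56 ± 0.16, adjusted p = 2.3e-13 by edgeR). At chr16:69237998-69238999 the level was 34.9 and 34.03 CPM at day 14, against 1.58 and 4.06 CPM at day 0 (3.81 ± 0.24). At chrX:86826847-86827848 it was 15.0 and 13.2 CPM at day 14 and 1.40 and 0.937 CPM at day 0 (3.51 ± 0.37), and at chr2:102577708-102578709 the rise was 3.46 ± 0.48, both staying under 20 CPM.

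The other regions at 20 CPM or more at day 14 had a higher start. The mean was 45.7 CPM at day 14 and 10.4 CPM at day 0 at chr8:122218485-122219486, and 40.3 CPM at day 14 and 18.9 CPM at day 0 at chr8:108456131-108457132. It was 35.4 CPM at day 14 and 14.2 CPM at day 0 at chr8:104196788-104197789. The remaining regions were chr21:28419421-28420422, chr5:71577798-71578799 and chr15:68828585-68829586, at 21.2 to 23.5 CPM at day 14 and 3.67 to 9.87 CPM at day 0. All 8 were called higher at day 14 by edgeR.

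The deepest fall in POS cells was at chr3:144733437-144734438, 1 of the 3 regions with a POS mean of 20 CPM or more. It held 2.56 and 2.32 CPM at day 14, against 20.5 and 20.9 CPM at day 0, a log2 fold change of -3.04 ± 0.27 (SE, adjusted p = 1.4e-20 by edgeR). Also called lower were chr19:54511401-54512402 (-2.90 ± 0.49), chr2:152190590-152191591 (-2.79 ± 0.50) and chr10:81194591-81195592 (-2.63 ± 0.47). These 3 averaged 0.935 to 1.123 CPM at day 14 and 6.83 to 7.59 CPM at day 0.

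After 24 hours of trametinib 2 of 189 listed regions stood at 20 CPM or more in treated POS cells. The DMSO libraries had chosen the regions for low values, so the calls, 25 higher and 68 lower beside 26.7% and 26% over all regions, are a description. At chr5:90374201-90375202 the level was 21.3, 27.2 and 21.9 CPM in treated cells, against 4.70, 10.4 and 6.25 CPM in DMSO cells (log2 fold change 1.80). At chr8:108456131-108457132 it was 44.3, 40.8 and 41.7 CPM in treated cells and 13.9, 21.8 and 13.9 CPM in DMSO cells (1.39). In both, POS replicate 2 was the highest of the DMSO libraries and lay below all treated libraries.

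The day 14 response of NEG and POS cells could be compared at the 96 regions listed in both chronic tables. CPM here is again TMM-scaled over matched regions. The difference of the log2 changes, NEG minus POS, passed the test in 65 of them: 21 had a higher and 44 a lower response in NEG cells (interaction term in edgeR), against 31.9% and 30.7% over all matched regions. A region low in untreated POS cells may be listed only because it rose by day 14. Such listing favours lower responses in NEG cells, so these counts are a description, and its effect was not tested. At chr16:69237998-69238999 the difference was -3.93 ± 0.27 (SE, adjusted p = 3.5e-44 by edgeR). NEG cells held 128 and 122 CPM at day 14 and 99.2 and 91.7 CPM at day 0, while POS cells held 91.2 and 89.2 CPM at day 14 and 2.87 and 7.22 CPM at day 0. The levels of the 2 kinds of cell were closer at day 14 than at day 0 there. At chr11:110934321-110935322 they were 34.7 and 49.7 CPM in NEG cells and 24.8 and 22.3 CPM in POS cells at day 14, with a difference of -3.88 ± 0.41.

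In the other direction the difference was 1.82 ± 0.38 at chr22:47688142-47689143 (adjusted p = 6.9e-06 by edgeR) and 1.81 ± 0.46 at chr6:81257056-81258057. At chr3:144733437-144734438 it was 1.68 ± 0.30, with 215 and 186 CPM in NEG cells at day 14 and 392 and 329 CPM at day 0, against 6.68 and 6.08 CPM in POS cells at day 14 and 37.4 and 37.2 CPM at day 0. The level was lower at day 14 in both kinds of cell there, and the log2 change was larger in POS cells. Leaving out POS day 14 replicate 2 reduced the 21 higher responses to 12. Scaling by total counts shifted the median difference over all regions by 0.32 on the log2 scale.

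Few of the regions reached 20 CPM in POSR2 or POSR1 either. Of the 312 listed in the POSR table, 16 stood at 20 CPM or more in POSR2 and 22 in POSR1, with 9 in both and 29 in either, and 2 of the 29 were also at that level in POS cells at day 14. Over all treated POS and POSR groups, 36 of the 1471 regions (2.45%) reached 20 CPM somewhere, and 35 of these had a POS DMSO mean under 20 CPM. Only 349 of the 1471 were listed in a POS or POSR table, and the rest have no count there. No share over all regions is given for the 36.

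**Figure D4:**
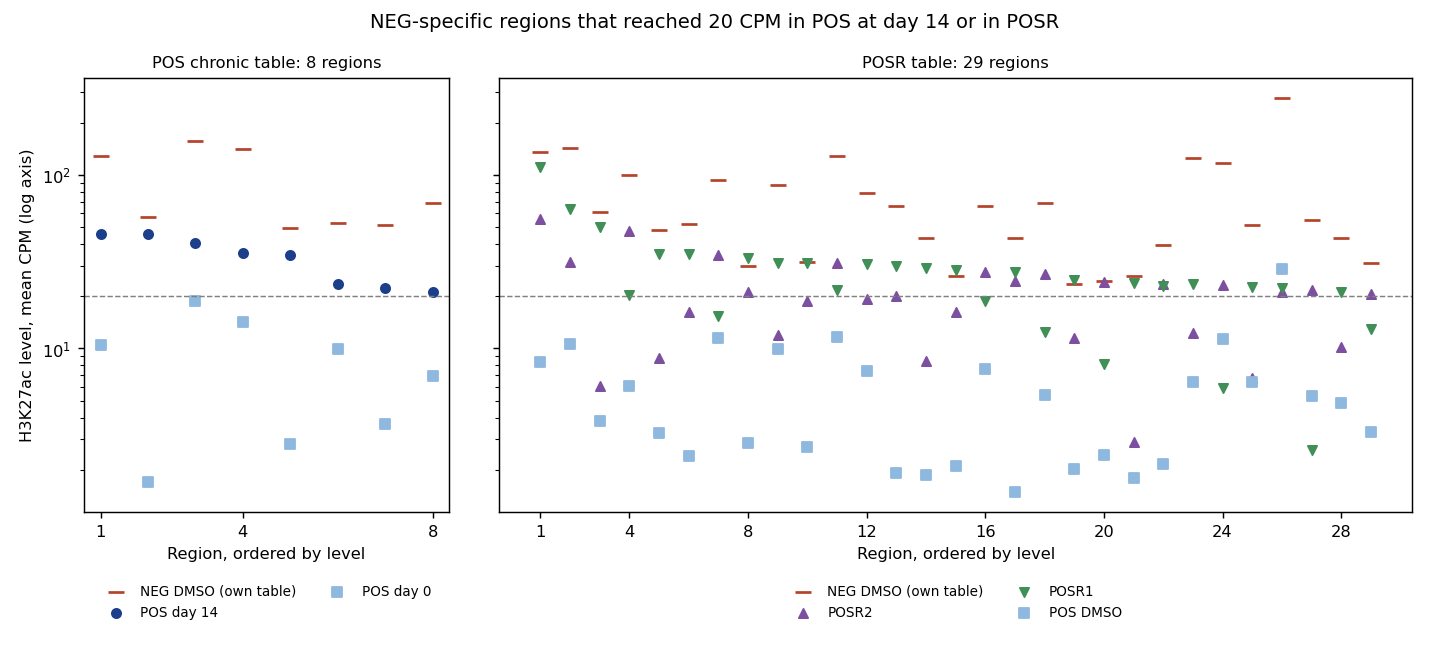
Mean H3K27ac level in CPM on a log axis of the NEG-specific regions that reached 20 CPM (dashed line) in POS cells at day 14 (left, 8 regions) or in POSR2 or POSR1 (right, 29 regions), ordered by level, with untreated POS cells and, from the table that chose the regions, NEG DMSO cells. Each value is per total of its own table, so NEG marks are on another scale than the rest. Most regions lie between the POS and NEG marks, and POSR1 and POSR2 often stand far apart at the same region.

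Regions in the same range of POS level give a rough background for these counts. Among regions under 5 CPM in untreated POS cells and listed in the POSR table, 6 of 192 NEG-specific regions (3.12%) reached 20 CPM in POSR2, against 36 of 4662 others (0.772%). In POSR1 it was 13 of the 192 (6.77%), against 27 others (0.579%). At day 14 of POS cells it was 4 of 44 listed (9.09%), against 112 of 1460 (7.67%). As shares of all regions of that POS level, with those not listed counted as not reaching the level, the NEG-specific regions were still the more frequent in POSR2 (0.469%, against 0.214%) and POSR1 (1.02%, against 0.16%), but not at day 14 (0.312%, against 0.665%). Between 5 and 20 CPM in untreated POS cells the NEG-specific regions were the rarer by either share, with 7.69% of those listed against 12.1% in POSR2, 6.84% against 10.8% in POSR1 and 6.15% against 21.1% at day 14. Of the 1471 NEG-specific regions 188 lay in this range, but only 35 of the 1471 had a POS mean of 10 CPM or more. The other regions were not held to low POS levels by the rule, and could start nearer to 20 CPM. Levels within a range were not matched. These shares are a description, and no test of them was made.

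POSR2 and POSR1 were compared with each other, a contrast the rule did not use. The listing did depend on these libraries, as it is named as a union over POSR and POS DMSO cells. Of the 312 regions, 192 were under 5 CPM in untreated POS cells and may be listed because POSR2 or POSR1 was high. Such listing favours differences between POSR2 and POSR1, so the shares called are a description, and its effect was not tested. By edgeR 102 of the 312 regions were higher in POSR2 and 79 lower, with 21.2% higher and 19.3% lower over all 53524 regions. At chr7:7593084-7594085 the level was 21.4 and 18.4 CPM in POSR2, against 1.80 and 0.225 CPM in POSR1, a log2 fold change of 4.35 ± 0.27 (SE, adjusted p = 2.1e-53 by edgeR). At chr5:25107543-25108544 it was 5.02 and 7.13 CPM in POSR2, against 48.1 and 52.1 CPM in POSR1 (-3.10 ± 0.17, adjusted p = 2e-72 by edgeR). The region of highest NEG to POS ratio, chr6:68339390-68340391, held 0.598 and 0.389 CPM in POSR2 and 5.67 and 6.17 CPM in POSR1 (-3.58 ± 0.54). POSR2 was the higher at the first of these regions and POSR1 at the other two.

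Day 0 POS libraries give POSR a comparison group that the rule did not use, at the 82 regions listed in both tables. For these fits CPM is per library total over matched regions, scaled by TMM factors. Against POS at day 0, POSR2 was higher at 27 and lower at 31 (edgeR, beside 28.4% and 27.7% over all 31000 regions), and POSR1 was higher at 20 and lower at 31 (beside 27.2% and 25.9%). The largest gain in both was at chr5:24788821-24789822, with 72.6 and 73.4 CPM in POSR2 and 142 and 162 CPM in POSR1, against 6.89 and 6.68 CPM in POS cells at day 0. The log2 fold change was 3.42 ± 0.18 in POSR2 (adjusted p = 4.9e-37 by edgeR) and 4.48 ± 0.16 in POSR1 (adjusted p = 4.8e-53). In their own table POSR1 averaged 111 CPM there. Untreated NEG cells averaged 135 CPM in the table that chose the regions, whose totals cover another set of regions. POSR1 and NEG levels were not compared in a fit. In POS cells at day 14 the same region stayed low, at 6.21 and 7.93 CPM, against 5.601 and 5.623 CPM at day 0 (adjusted p = 0.30 by edgeR).

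Some regions were higher in both by unequal amounts. At chr15:26094959-26095960, in the chromosome 15 group named above, POSR2 held 44.4 and 50.2 CPM and POSR1 20.2 and 20.5 CPM in their own table. Against POS at day 0 it was higher by 3.28 ± 0.17 in POSR2 and 2.12 ± 0.20 in POSR1 on the log2 scale. Of the group's 4 listed regions, levels ran from 5.39 to 47.3 CPM in POSR2 and from 1.47 to 20.4 CPM in POSR1. Losses included chr3:158795614-158796615 in POSR2 (-3.76 ± 0.43) and chr12:108699505-108700506 in POSR1 (-2.82 ± 0.38), the first region of the chromosome 12 group.

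Against POS DMSO, whose libraries chose the regions for low values, the values are a description. By edgeR 124 were higher and 89 lower in POSR2 (28.2% and 29.2% over all) and 113 higher and 106 lower in POSR1 (26.5% and 29.4%). Without POSR1 replicate 2 the 106 became 70. At chr10:84109465-84110466 the level was 24.5 and 24.4 CPM in POSR2 and 26.8 and 28.1 CPM in POSR1, against 1.60, 1.76 and 1.09 CPM in POS DMSO cells, so both carried it. At chr3:164178200-164179201 POSR1 held 30.5 and 29.1 CPM, against 1.72, 2.64 and 1.40 CPM in POS DMSO cells. At chr7:145341414-145342415 POSR2 held 15.4 and 13.7 CPM, against 0.572, 0.661 and 0 CPM in POS DMSO cells.

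The 6 regions with the highest NEG levels among those listed in every table took different courses. At chr1:162825492-162826493 the mark stayed high in NEG cells, at 261 and 268 CPM at day 14 and 338 and 332 CPM at day 0, and stayed low in POS, POSR2 and POSR1, at 15.5 CPM or less in any library. At chr3:144733437-144734438 it was lower after treatment in both cells, with 82.6 and 84.1 CPM in NEG cells after 24 hours of trametinib and 222 and 214 CPM in DMSO. At chr8:69836684-69837685 POS cells held 2.56 and 3.29 CPM at day 14, against 10.2 and 16.2 CPM at day 0, while POSR2 held 15.1 and 16.2 CPM and POSR1 13.4 and 13.7 CPM, against 13.2, 15.7 and 14.3 CPM in POS DMSO cells.

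At chr3:162108606-162109607 NEG cells held 59.5 and 56.0 CPM after 24 hours of trametinib, against 148 and 146 CPM in DMSO. POSR2 held 32.6 and 30.6 CPM and POSR1 67.3 and 59.9 CPM, against 11.4, 11.2 and 9.18 CPM in POS DMSO cells, so POSR levels lay above and treated NEG levels below those of their DMSO cells. At chr19:45879533-45880534 NEG cells held 198 and 181 CPM at day 14 and 155 and 158 CPM at day 0, and POS, POSR2 and POSR1 libraries stayed at 13.3 CPM or less. At chr5:41156810-41157811 NEG cells held 101 and 99.9 CPM at day 14 and 198 and 167 CPM at day 0, and POSR2 held 2.03 and 2.07 CPM, against 10.5, 13.4 and 12.4 CPM in POS DMSO cells.

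**Figure D5:**
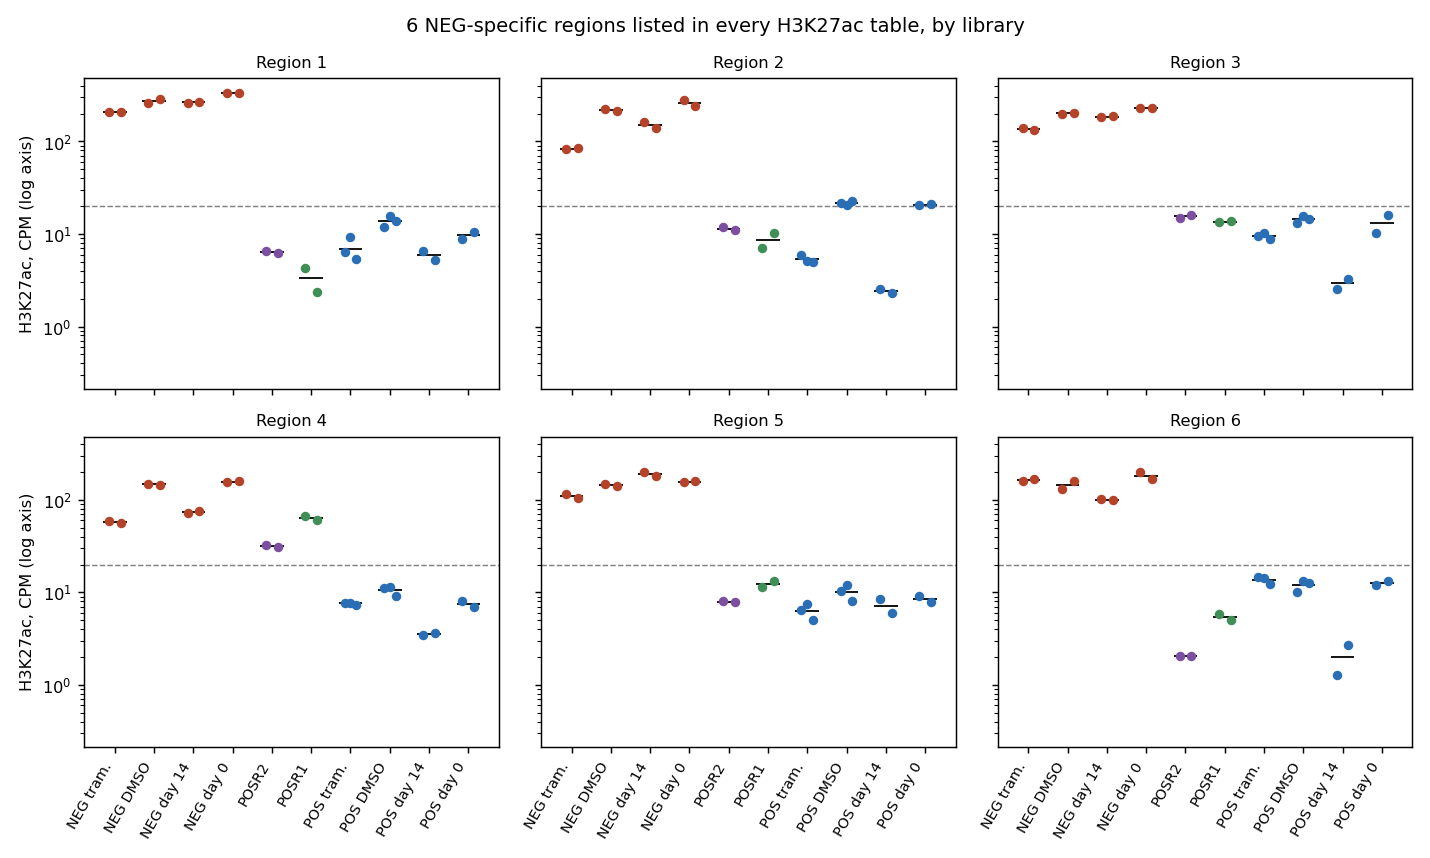
Levels in CPM on a log axis of the 6 regions just described, numbered in the order of the text, with 1 point a library, a bar at each group's mean and a dashed line at 20 CPM. Each value is per total of its own table, and the NEG and POS DMSO points are from the NEG and POS acute tables. In each panel the NEG libraries lie above all libraries of POS cells, and in the panel of chr3:162108606-162109607 the POSR1 libraries, at 67.3 and 59.9 CPM, lie between the NEG libraries after 24 hours of trametinib and those at day 14.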

How the data were processed

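H3K27ac and JUNB were profiled by chromatin immunoprecipitation and sequencing in 36 samples, of which 22 H3K27ac and 4 JUNB libraries were used here and 10 inputs were not. Per the submitters' processing notes the build was hg19 and the tools were STAR 2.5.2b, cutadapt 1.12, MACS2, featureCounts and DESeq2. Their settings and roles are not given in the sources read. Deposited by the authors were 7 tables of raw, unnormalized counts per region and library, each over its own set of regions, and whole numbers were found in every count column, all of which were mapped to a sample. The authors' region lists gave the coordinates, and their tables of DESeq2 results were not used. In the table named for acute trametinib, the count columns of treated cells are headed GSK and not trametinib, and were read as trametinib. Reads carry no molecular identifiers in the labels, so intervals and floors cover counting error only.

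The regions and lists were chosen with earlier results of these data known. Levels are CPM of a table's column sums, and tables are normalized separately, except in fits over matched regions, where CPM is TMM-scaled. Across tables, regions were paired 1 to 1 where each covered at least 50% of the other, and JUNB sites went to the region that held at least 50% of them. The tests are edgeR's quasi-likelihood test (edgeR 4.0.16, limma 3.58.1, R 4.3.3), on counts with TMM factors of 0.85 to 1.13, the default filter at a minimum count of 10 and Benjamini-Hochberg adjustment over all regions of the fit at a threshold of 0.05. NEG and POS libraries of different tables, and POSR and POS at day 0, were fitted over matched regions, whose region sets were called by the authors in different libraries, and the arms may differ by batch, which the labels do not give. Scripts were tested on simulated data. DESeq2 1.42.0, other scalings, filters, overlaps and limits, a replicate block and leaving out each library were alternatives. For each comparison up to 4 regions of largest fold in each direction were named, among those past the threshold whose groups did not overlap. For the region rule, the 6 highest ratios, the 4 highest NEG levels, 3 regions on each side of each limit, 3 groups with a tie for the last, and 6 regions listed in all tables were named. Other regions in the text, such as those that reached 20 CPM, were chosen after their values were seen. Marker lists were not used here. Summaries and figures used python 3.11.15, numpy 2.4.6, pandas 2.3.3, scipy 1.17.1 and matplotlib 3.10.9.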

Additional observations from a re-analysis of the deposited data

Results flagged for a closer look

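Between the cell populations, the response from day 0 to day 14 differed by the interaction test in edgeR at 65 of the 96 regions listed for both. It was higher in NEG cells at 21 and lower in NEG cells at 44 of them, beside 31.9% higher and 30.7% lower over all matched regions. Regions low in untreated POS cells may be listed only through a rise by day 14, which favours lower responses in NEG cells. POSR2 and POSR1 differed by edgeR at 181 of 312 regions, 102 higher in POSR2 and 79 lower, beside 21.2% and 19.3% over all regions. Regions low in untreated POS cells may be listed there only because POSR2 or POSR1 was high, which favours such differences. The drug and the time in culture cannot be told apart in the day 14 response.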

How the results depend on the processing

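Counts of called regions stayed within 1.5 times their value under total counts, DESeq2 size factors, no filter, DESeq2's test and the stricter overlap, except for these. DESeq2 called 0 JUNB sites lower, 162 regions higher in NEG cells after 24 hours, 82 higher at day 14 in NEG cells and 0 lower in NEG than in POS cells at day 14, and total counts also gave 0 for the last, where chr21:28419421-28420422 turned to 0.01056. An overlap of 80% gave 81 higher and 241 lower at day 14 in NEG cells and 18 and 20 lower in POSR2 and POSR1 than in POS cells at day 0. Among named regions 1095 results kept direction and call, 9 lost the call and 1 reversed.

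At a limit of 40 CPM the regions past it numbered 530 in NEG cells after 24 hours, 430 at day 14 and 525 at day 0, and 1 in POS cells after 24 hours, 3 at day 14, 0 at day 0, 2 in POSR2 and 3 in POSR1. At 10 CPM they numbered 23 in POS cells after 24 hours, 28 at day 14, 25 at day 0, 64 in POSR2 and 56 in POSR1. An overlap of 80% gave 475 at day 14 and 535 at day 0 in NEG cells, and 1 after 24 hours and 5 at day 14 in POS cells, and any overlap gave 4 after 24 hours in POS cells. Fewer regions match at 80% by construction. For the rest the cause was not tested.

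Leaving out each library in turn moved the region count between 1242 and 1747. Scaling the CPM by TMM factors gave 1238 regions by the same rule, all of them among the 1471. JUNB sites called lower ranged from 0 to 1, regions lower in NEG cells at day 14 against POS from 0 to 1 (0 without replicate 1 of either), response differences higher in NEG from 12 to 21, and regions lower in POSR1 than in POS DMSO cells from 70 to 113 (70 without POSR1 replicate 2).

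Replicate numbers were not taken as pairs in the main fits. In the POS acute arm, the only one with 3 pairs, same-numbered libraries had deviations correlated at 0.119, 0.375 and -0.016. So few values cannot settle whether the libraries were paired. With the replicate number as a block, 148 were higher and 430 lower at day 14 in NEG cells, 36 and 53 in POS cells, 92 and 71 in POSR2 against POSR1, and JUNB was higher at 1348 and lower at 0.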
